A study of Homo sapiens with 6 samples.

Results

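Exon usage after knockdown of SNRPA1 was compared with that of control cells over 17863 skipped exons of 7212 genes, out of 40658 skipped exons measured in the series. An exon was taken when at least 20 informative reads, meaning reads that fit only its inclusion or only its exclusion, were present in the siSNRPA1 pool and in the siCtrl pool. Where several events shared a middle exon, the event with the most informative reads over these pools stood for it. Total RNA came from MDA-LM2 cells, a human breast cancer line derived from MDA-MB-231 by selection for growth in the lung, 48 h after transfection. The siCtrl group holds 2 libraries of mock-transfected control cells (siControl), and the siSNRPA1 group holds 3 libraries of cells given siRNAs against SNRPA1. The series describes 3 siRNAs against SNRPA1, but no label ties a siRNA to a library or says whether libraries came from separate cultures. All groups come from 1 cell line and were transfected with the same reagent. Each group is present as 1 set of exon inclusion levels, so its libraries form a pool, and no value has a replicate or an SD.

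SNRPA1 encodes U2 A', a leucine-rich repeat protein that pairs with U2 B'' on the U2 small nuclear RNA. The U2 particle binds the branch point upstream of each exon, next to the U2AF proteins at the 3' splice site, and it must be recruited for an intron to be removed. A skipped exon, also called a cassette exon, is either joined to both of its neighbours (inclusion) or left out with both flanking introns (exclusion). When its length is divisible by 3 and it lies in coding sequence, leaving it out keeps the reading frame; otherwise the frame shifts.

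SNRPA1 itself was low in the pool named for it. Reads that fit an isoform of its 4 annotated skipped exons came to 117 per 1000000 such reads in siCtrl (2196 reads) and to 21.6 per 1000000 in siSNRPA1 (599 reads), which is 18.5% of the control value. The labels give knockdowns of 86%, 83% and 75% by quantitative PCR for the 3 siRNAs. Reads over the single annotated event of SNRPB, the Sm protein gene knocked down in another library of the series, stood at 244 per 1000000 in siCtrl and 332 per 1000000 in siSNRPA1. Of the genes marking MDA-MB-231 cells, CD44, EGFR, AXL and ANXA1 had annotated events, with 39.4 to 3220 reads per 1000000 in siCtrl and 59.8 to 3380 in siSNRPA1. VIM, CAV1 and MSN had no event. Reads over ESR1, PGR and CDH1 stayed at or below 2.71 per 1000000 in both pools, and those over the blood and liver genes PTPRC, CD3E and ALB at or below 4.09. GATA3 (15.1 and 21.8 per 1000000 in siCtrl and siSNRPA1) and KRT8 (789 and 793) had been listed as low and were not. The siCtrl pool held 5073458 informative reads over the compared exons, a median of 91 per exon, and the siSNRPA1 pool 6981095, a median of 124.

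Most of the change was loss of inclusion. An exon was tested when it had at least 5 inclusion and at least 5 exclusion reads over both pools, which held for 6473 exons of 3769 genes. Of these, 828 fell in inclusion (12.8% of those tested) and 276 rose (4.26%), so that 1104 passed (17.1%) and 75.0% of the passing exons fell. No interval is given for this share, since exons are not replicates and forms of an exon can share reads. The falls lay in 684 genes and the rises in 248. Falls had a median difference of -0.21 and rises one of 0.18. These are differences of the authors' inclusion level, a fraction from 0 (always left out) to 1 (always joined). The median over all tested exons was -0.02. Passing required an adjusted p under 0.05 (Fisher's exact test, two-sided, comparing inclusion with exclusion reads, Benjamini-Hochberg over all tested exons), and an inclusion level that differed by at least 0.1, with the same sign as the difference in read shares. "Fell" and "rose" refer to this rule throughout.

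**Figure D1:**
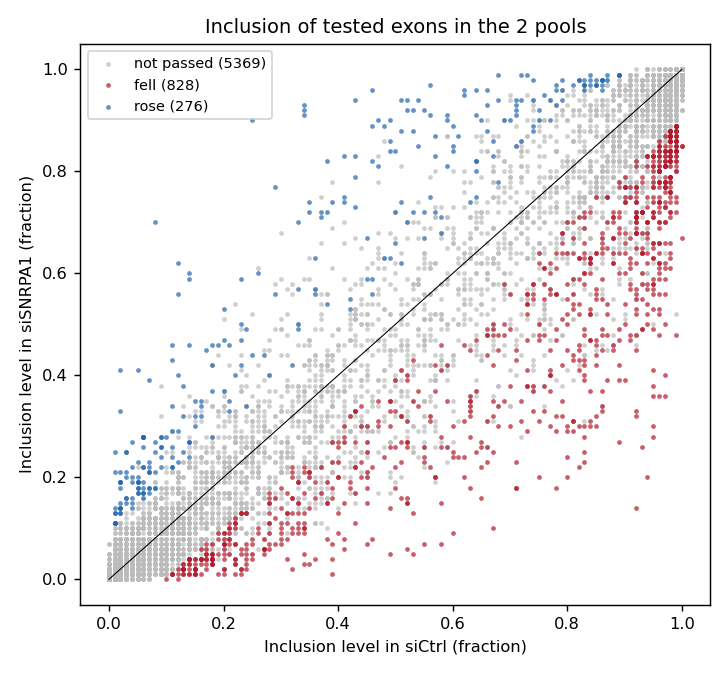
Inclusion level of each of the 6473 tested exons in the siCtrl pool (x axis, fraction) against the siSNRPA1 pool (y axis, fraction). Each point is an exon, coloured by whether it fell (828), rose (276) or did not pass (5369), and the line marks equal levels. More coloured points lie below the line than above it.

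The test compares the reads of these pools, not the conditions, with no replicate check. With read counts divided by 2, a rough allowance for reads copied from the same molecule, 291 exons passed. The number was 424 with 1 exon per gene, 559 with a difference of at least 0.2, 687 with an adjusted p under 0.01, and 713 where both pools had 50 or more informative reads. Among the 24 leading exons described next, read counts divided by 2 ended the calls of IL15RA, IMPA1 and ALG2. Among the other exons picked by rule it ended those of METTL15, NUP58, IPO11, AKT1, DDX42, RGL1, DPH7, NSDHL, ATG13 (116 nt), TROVE2 (349 nt) and CBWD3 (60 and 145 nt), 3 of 4 in SPG7, and all those of CERS5, IFT88, DAG1 and ZFYVE28. A difference of at least 0.2 ended the calls of PPHLN1, CMC2, PPP4R1, NOL8, RBM5, AKT1, IPO11, IMPA1, ALG2, DDX42 and CBWD3 (145 nt), and all 4 each of TROVE2 and SPG7.

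The remaining 11390 exons could not be tested. Of these, 9914 had under 5 exclusion reads over both pools, 7803 of them none at all, and 1476 had under 5 inclusion reads. Exons just inside the read minimum, with 20 to 24 informative reads in the shallower pool, numbered 1434 and had median levels of 0.44 in siCtrl and 0.42 in siSNRPA1. Exons just outside it, with 15 to 19 reads, numbered 1584, with medians of 0.43 and 0.40. At the difference threshold, 63 exons passed with a difference of exactly 0.10, and 69 exons met every other condition with a difference of 0.09.

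Some of the coding exons among the leading falls and rises are shown here by sequence, since a reader can see from them what the cell adds or leaves out. The sequences are spliced mRNA from the GENCODE 29 transcripts, 5' to 3', with the skipped exon in capitals and 15 nt of each neighbouring exon in lower case. All exons shown lie within coding sequence. The first set lost inclusion in the siSNRPA1 pool. On hg38 these exons are at chr2:200882342-200882435 (minus strand, PPIL3), chr1:24663183-24663224 (plus, SRRM1), chr5:171914343-171914405 (minus, FBXW11), chr22:46343262-46343368 (plus, TRMU), chr4:83458346-83458429 (plus, MRPS18C), chr1:74707103-74707204 (minus, CRYZ) and chr12:55969475-55969576 (plus, CDK2).
PPIL3: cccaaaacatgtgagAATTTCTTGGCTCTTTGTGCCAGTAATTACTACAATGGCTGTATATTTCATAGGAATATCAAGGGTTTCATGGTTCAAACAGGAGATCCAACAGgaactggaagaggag
SRRM1: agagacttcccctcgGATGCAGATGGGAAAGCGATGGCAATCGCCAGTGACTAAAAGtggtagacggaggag
FBXW11: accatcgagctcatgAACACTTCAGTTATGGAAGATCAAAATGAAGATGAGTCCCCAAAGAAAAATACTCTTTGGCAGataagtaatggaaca
TRMU: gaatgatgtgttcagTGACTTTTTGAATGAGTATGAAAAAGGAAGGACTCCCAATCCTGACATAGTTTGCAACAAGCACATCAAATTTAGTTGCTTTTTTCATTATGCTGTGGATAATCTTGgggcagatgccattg
MRPS18C: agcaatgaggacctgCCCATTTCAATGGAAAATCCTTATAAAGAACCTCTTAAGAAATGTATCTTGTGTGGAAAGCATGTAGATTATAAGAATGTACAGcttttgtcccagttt
CRYZ: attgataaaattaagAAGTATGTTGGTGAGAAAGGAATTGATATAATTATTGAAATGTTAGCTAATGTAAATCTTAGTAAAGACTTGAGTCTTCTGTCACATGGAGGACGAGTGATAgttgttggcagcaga
CDK2: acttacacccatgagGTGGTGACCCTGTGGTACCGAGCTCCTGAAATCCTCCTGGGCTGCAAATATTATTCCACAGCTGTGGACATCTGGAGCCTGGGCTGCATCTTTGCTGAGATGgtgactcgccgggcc

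The second set gained inclusion. These exons are at chr1:9737498-9737554 (minus, CLSTN1), chr10:31854066-31854206 (minus, ARHGAP12) and chr10:5963743-5963838 (minus, IL15RA) on hg38.
CLSTN1: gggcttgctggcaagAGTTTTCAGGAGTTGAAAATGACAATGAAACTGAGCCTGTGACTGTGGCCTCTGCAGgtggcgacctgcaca
ARHGAP12: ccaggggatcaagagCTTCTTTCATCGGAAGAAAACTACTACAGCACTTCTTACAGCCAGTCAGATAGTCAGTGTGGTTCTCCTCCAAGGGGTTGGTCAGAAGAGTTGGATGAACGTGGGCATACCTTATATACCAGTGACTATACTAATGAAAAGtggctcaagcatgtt
IL15RA: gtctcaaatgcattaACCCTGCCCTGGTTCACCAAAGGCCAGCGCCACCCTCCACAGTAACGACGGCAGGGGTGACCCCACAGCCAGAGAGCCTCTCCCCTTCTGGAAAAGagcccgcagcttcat

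The exons of SRRM1 (42 nt), FBXW11 (63 nt), MRPS18C (84 nt), CRYZ (102 nt) and CDK2 (102 nt) have lengths divisible by 3, as do those of CLSTN1 (57 nt), ARHGAP12 (141 nt) and IL15RA (96 nt). Those of PPIL3 (94 nt) and TRMU (107 nt) do not. GC content ran from 32.1% in MRPS18C to 63.5% in IL15RA.

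Falls were ranked by the smaller of the change in inclusion level and the change in the share of inclusion reads, among passing annotated exons for which both pools had 100 or more informative reads. PPIL3, a cyclophilin found with the spliceosome, led the ranking: its 94-nt exon had 140 inclusion against 10 exclusion reads in siCtrl and 124 against 97 in siSNRPA1. Its inclusion level was 0.84 (the authors' interval 0.75 to 0.91) in siCtrl and 0.30 (0.25 to 0.35) in siSNRPA1, and Fisher's exact test gave an adjusted p of 5.01e-14. The share of inclusion reads went from 93.3% (95% Wilson interval 88.2 to 96.3%) to 56.1% (49.5 to 62.5%), so neither kind of interval overlapped between the pools. A 41-nt form of the exon, which shares its 3' end, also fell, from 0.80 to 0.24. This form has the same exclusion reads, 10 in siCtrl and 97 in siSNRPA1, so it is not a separate loss.

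SRRM1, a serine- and arginine-rich splicing coactivator, had 112 inclusion against 28 exclusion reads in siCtrl and 98 against 153 in siSNRPA1 at its 42-nt exon. Its level was 0.61 (0.53 to 0.70) and 0.24 (0.19 to 0.28), and exclusion became the commoner outcome by reads. SMN1, whose product loads Sm rings onto snRNAs, had 106 inclusion against 7 exclusion reads in siCtrl and 122 against 78 in siSNRPA1 at its 54-nt exon, with levels of 0.74 and 0.33. This gene has a near-identical copy, so its reads are uncertain. TRMU, which thiolates mitochondrial tRNAs, had 102 inclusion against 20 exclusion reads in siCtrl and 131 against 126 in siSNRPA1, with levels of 0.69 and 0.35. Inclusion reads of TRMU thus made up 83.6% in siCtrl and 51.0% in siSNRPA1. MRPS18C, a protein of the small subunit of the mitochondrial ribosome, had 301 inclusion against 11 exclusion reads in siCtrl and 258 against 139 in siSNRPA1 at its 84-nt exon. Its level went from 0.89 (0.84 to 0.94) to 0.39 (0.34 to 0.44), and its adjusted p, 5.17e-25 (Fisher's exact test), was the lowest of the first 12.

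Other leading falls were in enzymes and their regulators. CDK2, the kinase that drives DNA replication with cyclins E and A, had 113 inclusion against 4 exclusion reads in siCtrl and 74 against 37 in siSNRPA1. Its level was 0.66 (0.54 to 0.78) and 0.23 (0.18 to 0.28), and the exon overlaps a gene on the other strand, from which its reads may not be told apart. FBXW11, a substrate receptor of the SCF ubiquitin ligase, went from 155 inclusion and 27 exclusion reads to 160 and 149, and its level from 0.82 to 0.46. CRYZ, a quinone oxidoreductase also known as zeta-crystallin, went from 238 inclusion and 40 exclusion reads to 267 and 214, and from a level of 0.74 to 0.38. CHD3, a chromatin remodeller of the NuRD complex, went from 105 inclusion and 22 exclusion reads to 75 and 79, and from 0.50 to 0.18. In these 4 genes the authors' intervals of the pools did not overlap.

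The other leading falls were not wholly coding. EXO5, a single-stranded DNA exonuclease, had 120 inclusion against 4 exclusion reads in siCtrl and 73 against 37 in siSNRPA1 at a 175-nt exon of its 5' UTR, with levels of 0.93 and 0.49. PITPNB, a phosphatidylinositol transfer protein, had levels of 0.79 and 0.42 at an 86-nt exon that is partly coding. MAPK1IP1L had levels of 0.70 and 0.38 at a 22-nt exon. Over the 12 genes the share of inclusion reads was 80.0% to 96.8% in siCtrl and 39.0% to 66.7% in siSNRPA1.

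The siSNRPB pool holds 1 library of cells given siRNA against SNRPB and shares the siCtrl pool as its control, so its levels are given only side by side. For PPIL3 (94-nt exon) it had 0.73, for MRPS18C 0.65, for CRYZ 0.66 and for CDK2 0.48, where siSNRPA1 had 0.30, 0.39, 0.38 and 0.23. For SRRM1 it had 0.17, for TRMU 0.34, for CHD3 0.24 and for PITPNB 0.35, where siSNRPA1 had 0.24, 0.35, 0.18 and 0.42. For FBXW11 it had 0.55, for SMN1 0.45, for EXO5 0.58 and for MAPK1IP1L 0.45, where siSNRPA1 had 0.46, 0.33, 0.49 and 0.38. These 12 exons were chosen for a low level in siSNRPA1, so the order within a pair is not read as a difference.

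**Figure D2:**
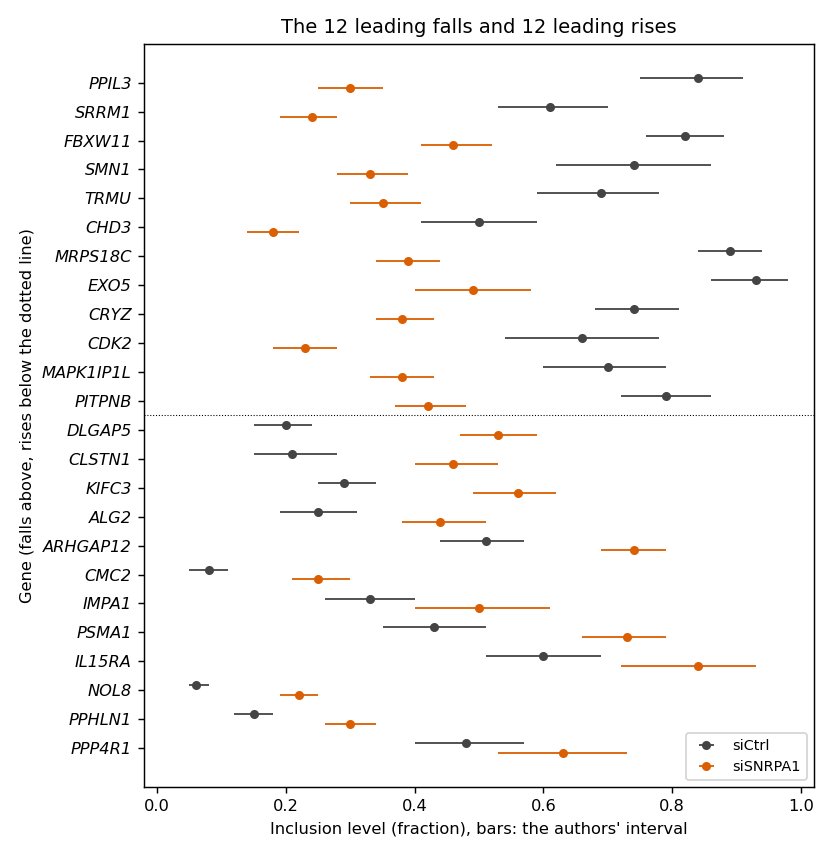
Inclusion level (x axis, fraction) of the 12 leading falls and the 12 leading rises, 1 exon per gene, in siCtrl and siSNRPA1. Points are the authors' inclusion levels and bars their intervals, which overlap between the pools in PPP4R1 and touch in IMPA1.

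Ranked in the same way, the 12 leading rises had values of this ranking measure from 0.15 to 0.33, against 0.294 to 0.372 in the 12 leading falls. DLGAP5, a spindle protein that bundles microtubules near chromosomes, headed them: its 91-nt exon had 62 inclusion against 118 exclusion reads in siCtrl and 189 against 78 in siSNRPA1. Its level was 0.20 (the authors' interval 0.15 to 0.24) and 0.53 (0.47 to 0.59), and the adjusted p was 5.64e-12 by Fisher's exact test. The commoner outcome by reads thus changed from exclusion to inclusion. CLSTN1, a calsyntenin that links cargo to kinesin, also changed this way by reads, from 36 inclusion and 70 exclusion reads to 134 and 68. Its level went from 0.21 to 0.46 and so stayed under 0.5. KIFC3, a kinesin that moves to microtubule minus ends, went from 135 inclusion and 111 exclusion reads to 220 and 56 at a 5' UTR exon of 139 nt, and from 0.29 to 0.56. ARHGAP12, a GTPase-activating protein, went from 187 inclusion and 82 exclusion reads to 420 and 57, and from 0.51 (0.44 to 0.57) to 0.74 (0.69 to 0.79).

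PSMA1, an alpha subunit of the proteasome core, had levels of 0.43 and 0.73 at a 307-nt exon of its 5' UTR, with 106 inclusion against 38 exclusion reads in siCtrl and 290 against 32 in siSNRPA1. NOL8, a nucleolar protein, had 61 inclusion against 350 exclusion reads in siCtrl and 254 against 323 in siSNRPA1, with levels of 0.06 and 0.22. The level stayed low in both pools, while the share of inclusion reads went from 14.8% to 44.0%. CMC2, an assembly factor of cytochrome c oxidase, had levels of 0.08 and 0.25, and PPHLN1, a subunit of the HUSH silencing complex, 0.15 and 0.30. ALG2, a mannosyltransferase of N-glycan assembly, had levels of 0.25 and 0.44. IL15RA, the alpha chain of the interleukin-15 receptor, had 96 inclusion against 27 exclusion reads in siCtrl and 97 against 6 in siSNRPA1, with levels of 0.60 and 0.84. IMPA1, an inositol monophosphatase, went from 0.33 (0.26 to 0.40) to 0.50 (0.40 to 0.61), and PPP4R1, a regulatory subunit of protein phosphatase 4, from 0.48 (0.40 to 0.57) to 0.63 (0.53 to 0.73). In the authors' deposited table the Bayes factors of IL15RA (9.76), IMPA1 (3.72) and PPP4R1 (1.79) were under 10, where a value over 1 favours a difference between the pools. With the siSNRPA1 reads thinned to the depth of siCtrl, IMPA1 no longer passed. A form of the IL15RA exon that is 99 nt long, chosen after its values were seen, also rose (0.61 and 0.87), with a Bayes factor of 11000 in that table. Forms of an exon can share reads, so it is not taken as a separate rise.

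The share of exons that fell differed with how often they were used in control cells, which also limits how far a level can move. No exon with a siCtrl level under 0.05 could fall by 0.1, and 36 of 1368 such exons rose (2.63%). From 0.05 to under 0.20, 65 of 1332 exons fell (4.88%) and 77 rose (5.78%). The median siCtrl level in this band was 0.1, and its exons under 0.1 could not fall by 0.1 either. The share that fell was 17.2% from 0.20 to under 0.40 and 17.3% from 0.40 to under 0.60, beside 5.12% and 9.65% that rose. From 0.60 to under 0.80, 117 of 578 exons fell (20.2%) and 48 rose (8.30%). Falls were most frequent from 0.80 to under 0.95, with 217 of 900 exons (24.1%) and 23 rises (2.56%). Of the 985 exons at 0.95 or above 203 fell (20.6%). The median number of informative reads in siCtrl was 52 from 0.20 to under 0.40 and 373 at 0.95 or above, and the part of depth in these shares was not tested. These are shares of tested exons, and 9914 exons were left out for under 5 exclusion reads over both pools. A highly included exon that did not change is easily left out this way, which can raise the share that fell in the high bands. The size of this effect was not tested.

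**Figure D3:**
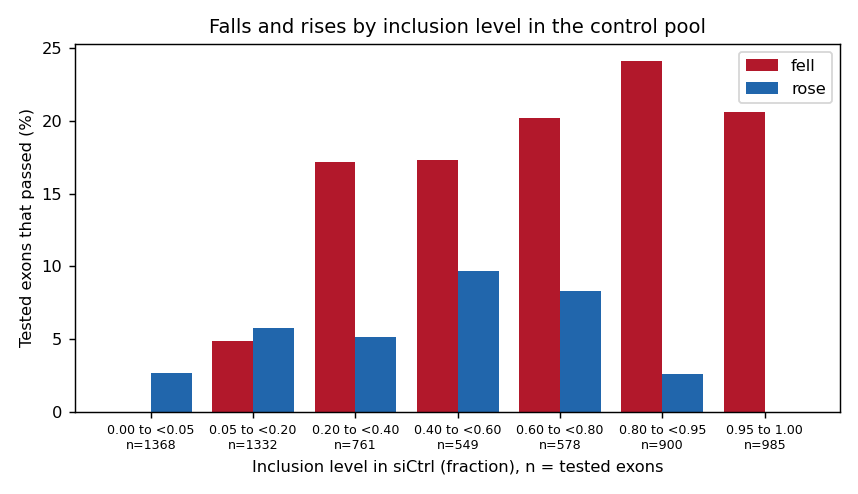
Percent of tested exons that fell or rose (y axis) by inclusion level in siCtrl (x axis, fraction, with the number of tested exons). The share that fell goes from 4.88% in the band from 0.05 to 24.1% in the band from 0.80, and rises reach 9.65% in the band from 0.40.

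Exons used nearly always in control cells gave some of the large losses. HARS2, the mitochondrial histidyl-tRNA synthetase, had 62 inclusion against 0 exclusion reads in siCtrl and 67 against 57 in siSNRPA1 at a 99-nt coding form of its exon, with levels of 0.97 and 0.36. CMTR2, an mRNA cap methyltransferase, had 43 inclusion against 0 exclusion reads in siCtrl and 12 against 10 in siSNRPA1 at a 60-nt 5' UTR exon, with levels of 0.96 and 0.36. EME1, part of a structure-specific endonuclease, had 52 inclusion against 0 exclusion reads in siCtrl and 29 against 28 in siSNRPA1 at an 87-nt exon, with levels of 0.95 and 0.38. That exon overlaps a gene on the other strand. In all, 254 of the 828 falls had 0 exclusion reads in siCtrl, and 73 of the 276 rises had 0 in siSNRPA1. The inclusion level crossed from over 0.5 in siCtrl to 0.5 or less in siSNRPA1 in 208 falls and the other way in 54 rises.

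Since control usage differs between kinds of exon, places in the gene and lengths were compared among the 2463 tested exons with a siCtrl level of at least 0.6, of which 21.8% fell and 2.88% rose. The median siCtrl level of these exons was 0.92, from which no rise of 0.1 is possible. Exons within coding sequence made up most of them, and 387 of 1850 fell (20.9%), close to the share over all. In the 5' UTR 54 of 162 fell (33.3%), with a median difference of -0.115, against -0.04 in coding sequence. The 5' UTR exons had a median of 89 informative reads in siCtrl and the coding exons 202. Control usage still differed between them, with median siCtrl levels of 0.84 and 0.93. Partly coding exons fell in 50 of 244 cases (20.5%) and exons of noncoding transcripts in 30 of 132 (22.7%). Over all tested exons, without regard to control usage, coding exons fell in 16.5% and 5' UTR exons in 12%. These classes are described without a test.

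Examples of 5' UTR exons with large falls were in GAS2L3, which links actin and microtubules, in NSDHL, an enzyme of cholesterol synthesis, and in SLC7A2, a transporter of cationic amino acids. GAS2L3 had 46 inclusion against 6 exclusion reads in siCtrl and 12 against 30 in siSNRPA1 at a 121-nt exon, with levels of 0.78 and 0.18. NSDHL had 23 inclusion against 4 exclusion reads in siCtrl and 8 against 16 in siSNRPA1, with levels of 0.65 and 0.16. SLC7A2 had 46 inclusion against 0 exclusion reads in siCtrl and 24 against 21 in siSNRPA1, with levels of 0.97 and 0.40. In the siSNRPB pool SLC7A2 had a level of 0.48, while GAS2L3 and NSDHL had under 20 informative reads there.

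Shorter exons fell more often among those tested. Among exons with a siCtrl level of at least 0.6, 17 of 45 of at most 30 nt fell (37.8%), and 92 of 276 from 31 to 60 nt (33.3%). The share was 24.1% from 61 to 90 nt, 23.1% from 91 to 120 nt, 18.5% from 121 to 180 nt, 13.7% from 181 to 500 nt and 11.4% over 500 nt. Rises ran from 2.16% to 3.72%, but the median siCtrl level of these exons was 0.92, from which no rise of 0.1 is possible. Their rises are therefore not set against the falls. The median number of informative reads in siCtrl rose with length, from 89 for the shortest exons to 1000 for the longest, so the highest share was seen at the lowest depth. At low depth an exon must be left out more often to reach the 5 exclusion reads needed for testing. Short exons that did not change may thus be missing more often, and the part of this filter in the shares was not tested. Among exons with a siCtrl level under 0.4, the shares that fell were 9.13% from 31 to 60 nt and 4.51% from 181 to 500 nt, but 2 of 52 at most 30 nt long (3.85%).

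Microexons among the falls included AP1B1, a subunit of the clathrin adaptor AP-1, whose 9-nt exon had 24 inclusion against 13 exclusion reads in siCtrl and 13 against 47 in siSNRPA1, with levels of 0.62 and 0.20. SUPT5H, a subunit of the elongation factor DSIF, had 79 inclusion against 10 exclusion reads in siCtrl and 40 against 35 in siSNRPA1 at a 12-nt exon, with levels of 0.84 and 0.47. DPH7, an enzyme of diphthamide synthesis, had levels of 0.84 and 0.47 at a noncoding exon of 27 nt. In the siSNRPB pool the levels were 0.19 for AP1B1 and 0.94 for SUPT5H, and DPH7 had under 20 informative reads.

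**Figure D4:**
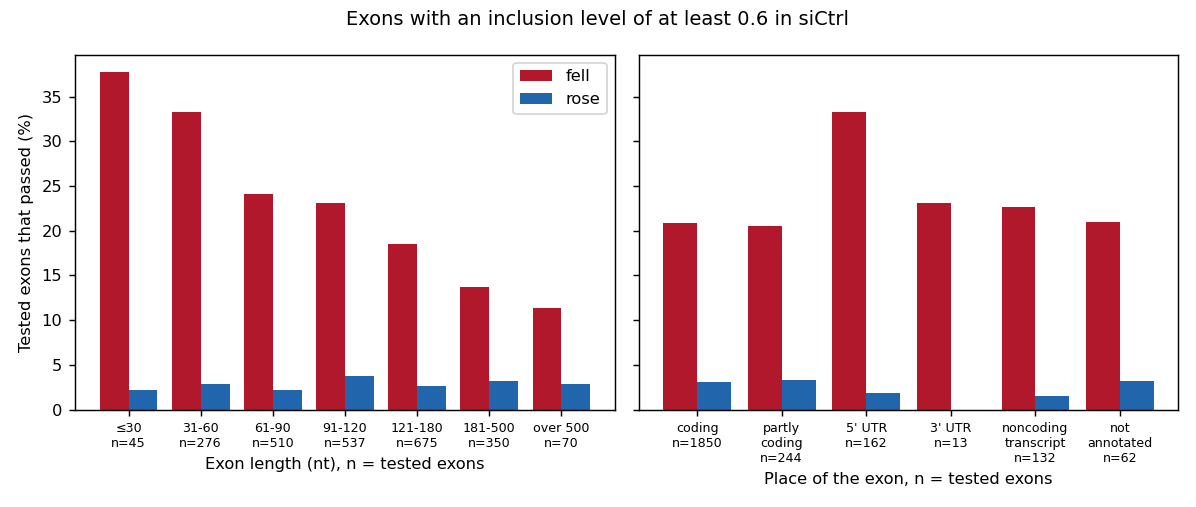
Percent of tested exons that fell or rose (y axis) among exons with an inclusion level of at least 0.6 in siCtrl, by exon length in nt (left) and by place in the gene (right), with the number of tested exons under each pair of bars. The share that fell declines from 37.8% to 11.4% with length and is 33.3% in the 5' UTR.

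Reading frame and flanking introns went with smaller differences. Of coding exons with a siCtrl level of at least 0.6, 199 of 914 with a length divisible by 3 fell (21.8%) and 188 of 936 with another length (20.1%). Frame-keeping losses included NLGN2, a neuroligin of inhibitory synapses, with 31 inclusion against 0 exclusion reads in siCtrl and 15 against 29 in siSNRPA1 at a 51-nt exon (0.95 and 0.28). BCOR, a transcriptional corepressor, had 19 inclusion against 5 exclusion reads in siCtrl and 3 against 19 in siSNRPA1 at a 54-nt exon (0.58 and 0.07), and the siSNRPB level was 0.62. RGL1, an exchange factor for Ral GTPases, had 20 inclusion against 0 exclusion reads in siCtrl and 12 against 12 in siSNRPA1 (0.83 and 0.28). A frame-shifting loss was in IL17RE, an interleukin-17 receptor subunit, from 28 inclusion and 3 exclusion reads to 22 and 35 (0.82 and 0.30). By upstream intron, the share that fell at this control usage was 23.5% up to 500 nt and 19.6% over 10000 nt, and by downstream intron 26.1% and 24.1%, with 19.1% from 2001 to 10000 nt.

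Base composition over all bases differed little between the groups of exons. Over 801 exons that fell and had an annotated sequence, 27.3% of bases were A and 23.4% were C, against 25.9% and 24.8% in 5140 exons that did not pass. The 263 exons that rose had 26.6% A and 24.4% C. Exons ending in CAG made up 27.5% of falls, 24% of rises and 24.8% of exons that did not pass, and exons with G as the last base 78.5%, 84.4% and 79.0%. At a siCtrl level of at least 0.6, the median GC content was 47.5% in 524 falls and 48.2% in 1808 exons that did not pass, and 27.7% and 22.9% of them ended in CAG. By GC content, the share that fell at this control usage was 24.3% under 40% GC and 22.2% from 40% to under 50%. It was 21.7% from 50% to under 60% and 17.7% from 60%.

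The reads behind the calls moved on both sides. Since the rule used these reads, their values are descriptions. Counted per 1000000 informative reads of the pool, exons that fell had a median of 0.701 exclusion reads in siCtrl and 3.19 in siSNRPA1, and 96.5% of them had more in siSNRPA1. Their inclusion reads had a median of 13.1 in siCtrl and 8.94 in siSNRPA1, and 15% had more in siSNRPA1. Summed over these exons, exclusion reads per 1000000 were 2.03 times those of siCtrl and inclusion reads 0.785 times. Exons that rose had medians of 3.50 and 0.894 exclusion reads, and of 4.64 and 7.92 inclusion reads. Their sums changed 0.547 times and 1.37 times. Exons that did not pass had sums of 1.08 times for exclusion and 0.951 times for inclusion reads. Reads in the event that matched neither isoform, which include reads from introns, were a median of 62.5% and 59.2% of all reads of an event in siCtrl and siSNRPA1 for exons that fell. For exons that did not pass these were 55.2% and 53.7%.

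**Figure D5:**
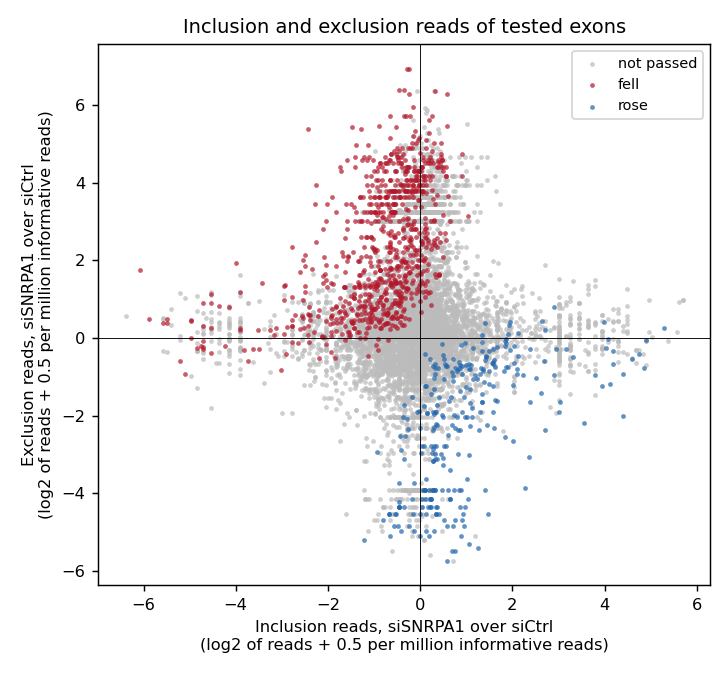
Change in inclusion reads (x axis) and in exclusion reads (y axis) of each tested exon, as log2 of siSNRPA1 over siCtrl after adding 0.5 reads and scaling per 1000000 informative reads of the pool. Exons that fell lie mostly at upper left, with more exclusion and fewer inclusion reads, and exons that rose mostly at lower right.

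Forms of an exon were counted separately, so passing exons of a gene can share reads. Passing exons lay in 908 genes, and 162 genes had at least 2, of which 114 had falls only, 24 rises only and 24 both. In 85 of the 162 genes at least 2 of the passing exons did not overlap. The 828 falls used 737 distinct exclusion junctions and the 276 rises 251. DAG1, the dystroglycan precursor, had 4 falls, at 2 pairs of overlapping forms. All 4 rest on the same exclusion junction, with 10 exclusion reads in siCtrl and 35 in siSNRPA1, so they are not separate losses. The 5' UTR form of 52 nt went from 0.60 to 0.30 and the 151-nt form from 0.30 to 0.10. SPG7, a mitochondrial AAA protease, had 4 rises, all forms of the same exon with 57 exclusion reads in siCtrl and 45 in siSNRPA1. The 310-nt form went from 0.09 to 0.28. TROVE2, the RNA-binding protein Ro60, had 4 falls, among them a 66-nt coding exon with 31 inclusion against 82 exclusion reads in siCtrl and 9 against 185 in siSNRPA1 (0.15 and 0.02). Its falls of 148 nt and 601 nt are forms of the same exon, with the same 38 exclusion reads in siCtrl and 165 in siSNRPA1. All 4 tested exons of TROVE2 passed, against 4 of 8 in DAG1 and 4 of 18 in SPG7. The fall of the 601-nt form of TROVE2 was lost with the share of inclusion reads as the measure (-0.05). The 349-nt exon of TROVE2 overlaps a gene on the other strand. IFT88, a carrier of intraflagellar transport, had 3 falls, all forms of the same exon with 8 exclusion reads in siCtrl and 17 in siSNRPA1. Its 328-nt form went from 0.80 to 0.45.

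Of the 24 genes that changed both ways, DLG1, a scaffold protein of cell junctions, rose at a 34-nt coding exon, with 8 inclusion against 62 exclusion reads in siCtrl and 41 against 14 in siSNRPA1 (0.03 and 0.25). The same gene fell at a 99-nt coding exon, with 182 inclusion against 43 exclusion reads in siCtrl and 135 against 81 in siSNRPA1 (0.64 and 0.37). In the siSNRPB pool these exons had levels of 0.03 and 0.41. CERS5, a ceramide synthase, fell at a 1107-nt 3' UTR exon (0.48 and 0.24) and rose at overlapping forms of 201 nt (0.50 and 0.84) and 293 nt (0.45 and 0.67). All these exons overlap a gene on the other strand, and the Bayes factors of the rises in the authors' deposited table were 9 and 1.39. ZFYVE28, an endosomal regulator of the EGF receptor, rose at a 90-nt exon (0.68 and 0.94) and fell at a 141-nt exon (0.96 and 0.66), the latter with 6 exclusion reads in siSNRPA1 and 0 in siCtrl. The fall of ZFYVE28 was lost with the share of inclusion reads as the measure (-0.058). CBWD3 fell at a 123-nt exon (0.49 and 0.05) and rose at a 60-nt exon (0.74 and 0.98), but its reads are uncertain because it belongs to a family of near-identical copies.

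Gene groups were described by their counts beside the 12.8% of all tested exons that fell, the 4.26% that rose and the median difference of -0.02 over all of them. In the U2 snRNP and its partners at the branch site, 12 of 29 genes had tested exons, and of these 23 exons 2 fell, 1 rose and 20 did not pass, with a median of -0.01. The falls were in SF1, which binds the branch point before U2 arrives (0.52 and 0.31), and in DDX42, an RNA helicase that associates with SF3B1 (0.99 and 0.84). The DDX42 share of inclusion reads changed by -0.084 only. RBM5, a splicing regulator and tumour suppressor, rose at a noncoding 70-nt exon, from 0 inclusion and 45 exclusion reads in siCtrl to 14 and 15 in siSNRPA1 (0.02 and 0.18). Its share of inclusion reads was 0% in siCtrl (95% Wilson interval 0 to 7.87%) and 48.3% in siSNRPA1 (31.4 to 65.6%).

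Centrosome and cilium genes had 6 falls and 4 rises in 40 tested exons, a passing share of 25% against 17.1% over all tested exons, with a median of 0. The 3 IFT88 forms share their exclusion reads, so this passing share counts the same exon 3 times. Other falls were in IFT46 (0.33 and 0.09), CEP192 (0.24 and 0.05) and PCM1, the centriolar satellite scaffold (0.89 and 0.71). Rises were in RPGRIP1L (0.35 and 0.74), CEP131 (0.71 and 0.93) and at 2 exons of CEP63 (0.53 and 0.72, 0.07 and 0.18). Autophagy and lysosome genes had 6 falls and 3 rises in 47 exons, with a median of -0.02. ATG13, a subunit of the kinase complex that starts autophagy, fell at a 137-nt 5' UTR exon from 24 inclusion and 5 exclusion reads in siCtrl to 0 and 25 in siSNRPA1 (0.39 and 0.01). It also fell at a 116-nt 5' UTR exon (0.64 and 0.25). WIPI2, which binds lipids of the forming autophagosome, fell at a 54-nt coding exon (0.51 and 0.27), and OPTN, an autophagy receptor, rose at a 5' UTR exon (0.09 and 0.22).

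Lipid metabolism genes had 6 falls and 4 rises in 59 exons, with a median of -0.01. SPTLC1, a subunit of the enzyme that begins sphingolipid synthesis, fell from 48 inclusion and 62 exclusion reads in siCtrl to 11 and 123 in siSNRPA1 (0.18 and 0.03), and MGLL, the monoacylglycerol lipase, fell from 0.97 to 0.77. FADS1, a fatty acid desaturase, rose from 0.05 to 0.17 at an exon that overlaps a gene on the other strand. Enzymes that modify tRNA and rRNA or process RNA had 5 falls and 1 rise in 54 exons. Their passing share was 11.1%, against 17.1% over all tested exons, while their median of -0.045 was the lowest of the 8 lists. Besides TRMU, METTL14, a subunit of the m6A methyltransferase, fell (0.21 and 0.07), as did METTL15 (0.67 and 0.42), and METTL8 rose (0.84 and 0.97). The METTL15 call did not hold with thinned reads, and its Bayes factor in the authors' deposited table was 4.36.

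Proteasome genes had 3 falls and 1 rise in 32 exons, with a median of -0.015. Both forms of an exon of PSMG1, a chaperone of proteasome assembly, fell, the 63-nt form from 224 inclusion and 5 exclusion reads in siCtrl to 135 and 32 in siSNRPA1 (0.96 and 0.70). Both forms have the same exclusion reads, so they are not separate losses. PSMD13, a subunit of the regulatory particle, fell from 0.90 to 0.68, while the rise was the PSMA1 exon described above. Nuclear pore and transport genes had the smallest passing share of the lists, 6.67%, with 2 falls and 1 rise in 45 exons. The nucleoporin NUP58 fell at a 36-nt coding exon (0.93 and 0.72) and the import receptor IPO11 rose at a 71-nt coding exon (0.82 and 0.98). In 84 exons of the list of breast cancer genes and metastasis regulators there were 6 falls and 2 rises (9.52%), and the median was -0.01. SPARC, a matrix glycoprotein, fell at a 226-nt 5' UTR exon that overlaps a gene on the other strand (0.38 and 0.08). YAP1, the Hippo pathway coactivator, fell from 438 inclusion and 14 exclusion reads in siCtrl to 737 and 115 in siSNRPA1 (0.74 and 0.55). AKT1 fell at a 178-nt 5' UTR exon (0.36 and 0.19), a call that thinning the reads removed. Both rises of this list were forms of the same exon of ZEB1, a repressor of epithelial genes, the 63-nt form going from 207 inclusion and 5 exclusion reads to 299 and 0 (0.85 and 0.97). In the authors' deposited table the Bayes factors of several rises in these lists were under 10, at 4.33 for METTL8, 7.18 for CEP131, 3.71 and 3.23 for the CEP63 exons, and 5.17 for the 63-nt form of ZEB1.

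The authors' own statistic gave a similar number of calls with partly other exons. By the authors' deposited table, a Bayes factor of at least 10 and a difference of at least 0.1 were reached by 1008 of the tested exons (15.6%), of which 220 did not pass here. Of the passing exons, 621 of 828 falls and 167 of 276 rises reached a Bayes factor of 10. The authors' intervals of the pools did not overlap in 854 of the 1104 passing exons. Of the passing exons 98 overlapped a gene on the other strand. Whether reads were counted by strand was not stated, so reads of such a gene may be mixed in.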

How the data were processed

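Total RNA libraries of MDA-LM2 cells were made with a stranded low-input kit, per the labels' protocols. The submitters' processing notes name STAR 2.7 and hg38 without a role. The column names are those of MISO, and no source used here gives its version, its settings or how libraries were pooled. The authors deposited, for each group, inclusion levels as a rounded fraction, with interval bounds of unstated width, and reads by class of isoform match. In a comparison table the authors deposited a Bayes factor (a ratio) and a difference (a score from -1 to 1), which equalled that of the summaries in 44653 of 44653 events. Here reads were tested per exon with Fisher's exact test and Benjamini-Hochberg adjustment (Python 3.11.15, scipy 1.17.1, numpy 2.4.6, pandas 2.3.3). The procedure was also run on simulated independent reads, without spread between libraries and with read shares in place of the authors' levels. That run cannot show how it behaves on pooled libraries. Reads are not independent molecules, so tests and intervals cover counting error only. Exons were matched to GENCODE 29 on hg38 by exact coordinates, counted from 1. "Coding" means within the coding sequence of an annotated transcript. List genes were matched by symbol or Ensembl identifier.

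Named exons were the first 12 falls and 12 rises (at least 100 informative reads in each pool, annotated, 1 per gene) by the smaller change of level and read share. Further ones were up to 2 exons of each of 8 gene lists, up to 3 of each of 5 classes (coding with a length divisible by 3, coding with another length, 5' UTR, at most 30 nt, siCtrl level of at least 0.95), and 4 genes each with most passing exons or with both directions. SF1, IFT46, CEP192, PCM1, RPGRIP1L, CEP131, CEP63, WIPI2, OPTN, SPTLC1, MGLL, FADS1, METTL14, METTL8, PSMD13, YAP1 and ZEB1 were added after their values were seen. The members and lists were chosen with earlier results of these data known. Sequences are shown for a choice of the wholly coding exons among the first 12 falls and 12 rises. No column of per-sample values was left aside (0).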

Additional observations from a re-analysis of the deposited data

How the results depend on the processing

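The lead of falls over rises held under all 13 alternatives, from 67.5% to 82.5% of passing exons. With at least 50 informative reads 713 exons passed, 156 of them rises, 78.1% fell, and the median difference was -0.01. With a difference of at least 0.2 there were 559 (442 falls, 117 rises, 79.1% falls), and with an adjusted p under 0.01 there were 687 (525 and 162). With 1 exon per gene 424 passed (328 and 96). Read counts divided by 2 gave 291 (240 and 51, 82.5% falls), and 45 of the 75 named exons still passed. With the share of inclusion reads as the measure 67.5% of passing exons fell, and by the authors' Bayes factor 79.4%. The median difference was 0 with no minimum of inclusion or exclusion reads, where 17863 exons were tested and 823 passed, and -0.01 with reads thinned. The cause of these shifts was not tested. Some of these settings leave fewer exons or reads. Of the 75 named exons, those that no longer passed numbered 19 at a difference of at least 0.2, 13 at an adjusted p under 0.01, 8 by the Bayes factor, 8 with no read minimum, 3 by read shares, and 6 with thinned reads, where 67 of the 75 could be tested. Keeping all events, choosing the event over 3 pools, a minimum of 10 reads and leaving out exons over a gene of the other strand left each count within 1.5 times. No replicate could be left out, since each group is 1 pool. No paired analysis was possible because the pooled summaries carry no replicate numbers. A median of 91 informative reads per tested exon in siCtrl limits what could be detected.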

Other observations

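Genes that do not encode proteins had 162 tested exons, of which 27 fell (16.7%) and 9 rose (5.56%), with a median difference of -0.03 and a median of 61.5 informative reads per exon in siCtrl. Protein-coding genes had 6311 tested exons, of which 801 fell (12.7%) and 267 rose (4.23%), with a median difference of -0.02 and a median of 92 reads.

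Among the 11390 exons with too few inclusion or exclusion reads to test, the inclusion level was lower by at least 0.1 in siSNRPA1 in 1360 and higher by at least 0.1 in 898. In 7 tested exons the inclusion level moved by at least 0.1 against the direction of the read shares at an adjusted p under 0.05 (Fisher's exact test), and these were not counted as changed.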
